A study of Mus musculus with 11 samples.

Results

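Expression of 8 genes of plasma cells and of secretory IgA was described in mouse intestine by RNA sequencing. They were Jchain, Mzb1, Derl3, Tnfrsf17, Irf4, Prdm1, Sdc1 and Pigr, chosen by name, and all 8 were among the 24250 genes of the authors' table. Libraries came from 3 groups. There were 3 libraries of the ND group, read as a normal diet, and 4 of the HFD group, read as a high-fat diet. The remaining 4, called FSP here, were from mice that received 5 Substances Powder with Poria, a herbal medicine (the labels spell its number out as a word). Their diet was not stated, although the title of the series calls the mice obese. Strain, age, sex, dose, duration and the stretch of small intestine were not given either. The labels did not tie libraries to animals, so p-values here measure only the spread between samples, part of which may be technical.

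Plasma cells are the antibody-secreting end stage of the B cell lineage, and those of the gut wall make mostly IgA. IgA monomers are joined by the J chain, bound by the polymeric immunoglobulin receptor at the base of epithelial cells, carried across the cell and released into the gut lumen with a piece of that receptor attached. Cd79a, a signalling chain of the B cell receptor, and Ms4a1, which encodes CD20, mark B cells of the lymphoid follicles, and Ms4a1 is lost as a B cell becomes a plasma cell. Whether the 8 genes followed Cd79a and Ms4a1 from library to library was therefore asked beside the group comparisons. In bulk tissue, fewer cells of a type and less RNA per cell cannot be told apart.

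Libraries held about 3.18e+07 to 3.84e+07 fragments, and levels are in FPKM (fragments scaled to gene length and library total). All 8 epithelial markers were present, with a summed level of 6046 to 6382 FPKM in ND, 4833 to 6899 in HFD and 7002 to 8206 in FSP. HFD 1 stood apart, with 40.4% of its summed FPKM in mitochondrially encoded genes against 12.9% to 26.3% in the other libraries, and the calls named below that were lost without it are pointed out. Fabp6, an ileal bile acid binding protein, lay at 397 to 9821 FPKM in ND, at 1.26 to 4.31 in HFD and at 40.1 to 2953 in FSP, and its part in the differences below was not tested. Differences are given in log2(FPKM + 1), where changes at low levels come out too small, from a limma fit over the 10296 genes with a mean of at least 1 FPKM. Their median difference was -0.21 in HFD against ND and 0.12 in FSP against HFD, and was 0.00 in both after median-ratio scaling, so differences of that size are read against it.

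Jchain, which encodes the J chain, was lowest in ND, higher in every HFD library and highest in 3 of the 4 FSP libraries. Mzb1 was higher in HFD and in FSP than in ND without overlap, and was the one gene among the 4 tested whose level followed Cd79a between libraries. Sdc1 fell in HFD against ND, and Pigr was lower in each HFD library than in any ND library without passing the threshold of the genome-wide test. Derl3 and Tnfrsf17 were low throughout and, like Jchain, highest in FSP 1, FSP 2 and FSP 4, whereas Prdm1 showed no separation of groups.

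**Figure D1:**
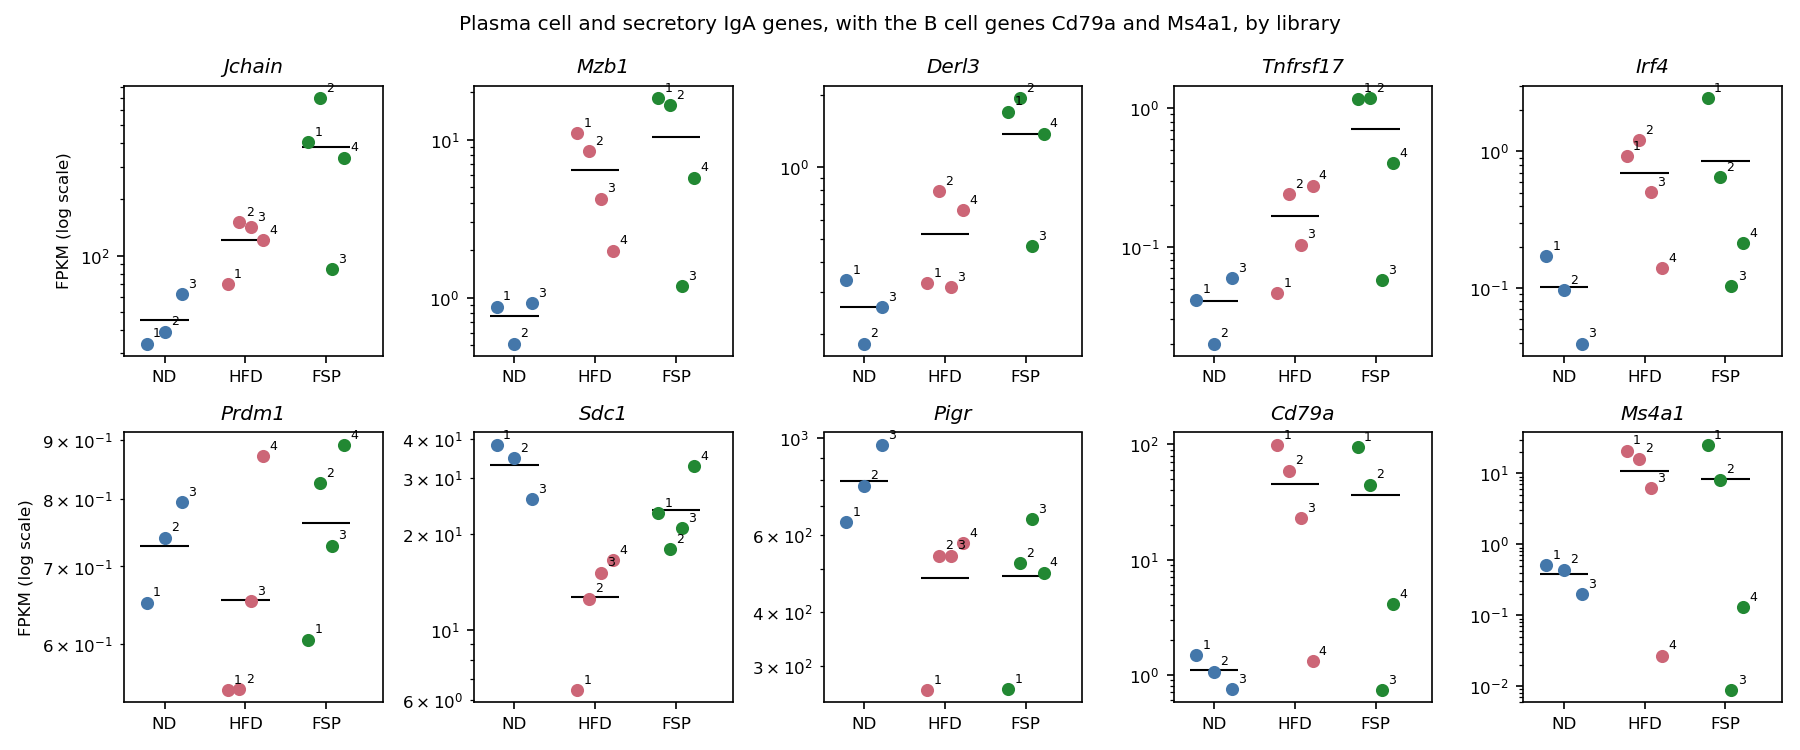
FPKM (log axis) of the 8 genes and of the B cell genes Cd79a and Ms4a1 in each library of ND, HFD and FSP. Points carry the replicate number and lines are arithmetic group means. Jchain ran from 33.7 in ND 1 to 697 in FSP 2, and FSP 3 lay lowest of the FSP libraries for 7 of the 10 genes.

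Jchain lies at chromosome 5, 88519809 to 88527891 on the minus strand (GRCm38, GENCODE vM21). It measured 33.7, 39.1 and 62.1 FPKM in ND 1 to 3, and 70.0, 151, 142 and 121 FPKM in HFD 1 to 4. In FSP 1 to 4 it measured 408, 697, 84.3 and 335 FPKM. Both HFD and FSP thus lay wholly above ND, whereas FSP 3 fell inside the range of HFD and the other FSP libraries lay above it. The group means were 45.0 ± 15.1 (SD, n = 3), 121 ± 36.3 (SD, n = 4) and 381 ± 252 FPKM (SD, n = 4), ratios of 2.69 for HFD over ND and 8.47 for FSP over ND. In the fit over all genes Jchain was 2.76 higher in FSP than in ND on the log2 scale (SE 0.57, limma adjusted p = 0.0446). The adjusted p was 0.0965 in HFD against ND (log2 difference 1.40, SE 0.57) and 0.185 in FSP against HFD (1.36, SE 0.52). These comparisons share libraries, each of ND, HFD and FSP entering a pair of them.

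The FSP call for Jchain was fragile, and FSP 3 weighed on it. It was lost under 14 of 19 alternative settings, among them the fit with no filter on low values (limma adjusted p = 0.126), median-ratio scaling (0.0544) and leaving out any ND library (0.0579 to 0.242), HFD 2, HFD 3, HFD 4, FSP 1, FSP 2 or FSP 4 (0.0589 to 0.128). Without FSP 3 the log2 difference of Jchain was 3.36 in FSP against ND (limma adjusted p = 0.00187). Against HFD it was then 1.97 (adjusted p = 0.0109), and in HFD against ND it stayed at 1.40 with an adjusted p of 0.0145. The direction of all 3 Jchain differences held in every alternative tried.

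Mzb1, a chaperone of the endoplasmic reticulum that aids antibody assembly and secretion, was near the limit of the filter in ND. Its levels were 0.877, 0.512 and 0.921 FPKM in ND, 10.99, 8.44, 4.24 and 1.98 FPKM in HFD and 18.3, 16.6, 1.19 and 5.77 FPKM in FSP. Every HFD and FSP library exceeded every ND library, and HFD and FSP overlapped widely. Means were 0.770 ± 0.224 (SD, n = 3), 6.41 ± 4.06 (SD, n = 4) and 10.5 ± 8.32 FPKM (SD, n = 4). On the log2 scale Mzb1 differed by 1.88 in HFD against ND (SE 0.68, limma adjusted p = 0.0703), by 2.26 in FSP against ND (SE 0.68, 0.150) and by 0.38 in FSP against HFD (SE 0.63, 0.802). The HFD difference passed with a pseudocount of 0.1 (limma adjusted p = 0.0445), without HFD 4 (0.0452) and without FSP 3 (0.0207). Without FSP 3 the FSP difference from ND passed as well (limma adjusted p = 0.0235), and without FSP 1 the difference of FSP from HFD turned to -0.02.

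Derl3 and Tnfrsf17 averaged under 1 FPKM over the libraries, so they were tested only in the fit without that filter and by exact permutation. Derl3 encodes a derlin that helps remove misfolded proteins from the endoplasmic reticulum of secretory cells. It measured 0.338, 0.183 and 0.260 FPKM in ND, 0.327, 0.793, 0.315 and 0.659 in HFD and 1.71, 1.94, 0.468 and 1.38 in FSP, which corresponds to about 9 to 96 fragments a library. All FSP libraries exceeded all ND libraries, and FSP 3 alone lay within the range of HFD. Tnfrsf17 encodes BCMA, the receptor through which long-lived plasma cells take survival signals. Its levels were 0.0417, 0.0201 and 0.0594 FPKM in ND, 0.0462, 0.240, 0.104 and 0.276 in HFD and 1.17, 1.18, 0.0579 and 0.404 in FSP. In fragments these were about 1 to 3 in ND, 2 to 14 in HFD, and 57, 59, 3 and 21 in FSP, so the ND levels and those of HFD 1 and FSP 3 sit at the edge of detection. For Derl3 in FSP against ND the exact two-sided permutation p was 0.0571, and for Tnfrsf17 it was 0.0857 (4 against 3 libraries, where the smallest possible p is 0.0286). With no filter, limma gave adjusted p-values of 0.190 for Derl3 and 0.348 for Tnfrsf17 in that comparison.

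Because Jchain, Derl3 and Tnfrsf17 shared their 3 highest libraries, the 250 bases before their starts are shown 5′ to 3′ on the strand of the gene (RefSeq, GRCm38.p6), with matches to the motifs searched in capitals. They span chr5:88527898-88528147 (minus strand), chr10:75893148-75893397 (plus strand) and chr16:11313559-11313808 (plus strand).
Jchain: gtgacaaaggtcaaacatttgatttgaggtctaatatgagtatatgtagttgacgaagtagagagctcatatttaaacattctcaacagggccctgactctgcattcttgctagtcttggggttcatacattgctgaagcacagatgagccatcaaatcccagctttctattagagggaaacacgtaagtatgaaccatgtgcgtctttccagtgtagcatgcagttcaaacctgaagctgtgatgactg
Derl3: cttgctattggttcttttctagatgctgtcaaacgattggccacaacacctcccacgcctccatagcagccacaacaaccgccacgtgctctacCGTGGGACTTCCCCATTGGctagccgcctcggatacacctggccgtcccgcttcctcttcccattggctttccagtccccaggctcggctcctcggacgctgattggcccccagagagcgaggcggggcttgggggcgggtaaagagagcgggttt
Tnfrsf17: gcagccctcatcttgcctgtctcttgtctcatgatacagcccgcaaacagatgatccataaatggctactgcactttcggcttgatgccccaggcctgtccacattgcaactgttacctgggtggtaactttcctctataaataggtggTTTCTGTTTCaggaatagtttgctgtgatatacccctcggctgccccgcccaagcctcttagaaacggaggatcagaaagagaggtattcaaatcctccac
Both strands were searched for 4 motifs, none of which overlaps another in these windows. The endoplasmic reticulum stress element was found in Derl3, 156 bases before the start on the opposite strand, and in 0.113% of 32851 promoter windows of the same length. The core of the interferon-stimulated response element, a tandem IRF site, was found in Tnfrsf17, 101 bases before the start on the opposite strand. That core was found in 2.98% of windows. Neither these nor the octamer ATTTGCAT (1.60% of windows) nor the unfolded protein response core CCACGTCA (0.563%) occurred in the windows of Jchain, Irf4, Prdm1, Sdc1, Pigr or Cd79a. In all, 7 of the 8 genes had an entry, the exception being Mzb1.

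Irf4 and Prdm1 encode the transcription factors IRF4 and BLIMP1, which drive B cells to become plasma cells. Irf4 measured 0.172, 0.0969 and 0.0393 FPKM in ND, 0.925, 1.21, 0.507 and 0.140 in HFD and 2.45, 0.652, 0.104 and 0.213 in FSP. HFD and FSP both overlapped ND, and the highest levels were in FSP 1, HFD 2 and HFD 1. Exact two-sided permutation p-values for Irf4 were 0.0857 in HFD against ND, 0.2 in FSP against ND and 1.0 in FSP against HFD. The last difference was 0.01 on the log2 scale, and its sign turned with a pseudocount of 0.1, after median-ratio scaling, after rescaling without mitochondrial genes, and without HFD 3, HFD 4 or FSP 1 (-0.34 to 0.21 on leaving out a library). Prdm1, which epithelial cells can also express, stayed between 0.547 and 0.892 FPKM in all 11 libraries, with exact two-sided permutation p-values of 0.286 to 0.714. Its difference between HFD and ND was -0.07 and turned to 0.04 after median-ratio scaling.

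Sdc1 encodes syndecan-1 (CD138), a proteoglycan used to sort plasma cells that also coats the sides of intestinal epithelial cells. It lies at chromosome 12, 8771323 to 8793715 on the plus strand. Sdc1 measured 38.2, 34.8 and 25.7 FPKM in ND, 6.44, 12.5, 15.1 and 16.6 in HFD and 23.3, 17.9, 20.9 and 32.8 in FSP. HFD lay wholly below ND and wholly below FSP, and ND and FSP overlapped. Group means were 32.9 ± 6.47 (SD, n = 3), 12.7 ± 4.48 (SD, n = 4) and 23.8 ± 6.42 FPKM (SD, n = 4), so ND exceeded HFD 2.60-fold. Sdc1 fell by 1.36 in HFD against ND on the log2 scale (SE 0.29, limma adjusted p = 0.00800), and this call held under all 19 alternatives, with a difference of -1.10 without HFD 1 (limma adjusted p = 0.00848). In FSP against HFD the difference was 0.90 (SE 0.27, limma adjusted p = 0.0935, exact two-sided permutation p = 0.0286, the smallest possible). Of the 8 epithelial markers, Epcam and Cldn7 passed in HFD against ND (-0.58 and -0.72) and in the reverse direction between HFD and FSP (0.71 and 0.72), calls that were all lost after median-ratio scaling. The other 6 did not pass in HFD against ND, where the median of the 8 was -0.21, that of all tested genes. Krt20 differed there in the opposite direction, with means of 1161 FPKM in ND and 1617 in HFD (0.46, limma adjusted p = 0.0683). With the mean of the 8 markers in the fit, Sdc1 differed by -0.88 in HFD against ND (limma adjusted p = 0.0161) and by -0.01 in FSP against HFD (0.992). The summed markers were higher in every FSP library than in any HFD or ND library. In that fit, differences of FSP therefore cannot be told apart from the marker level. Divided by Epcam, an epithelial surface marker, Sdc1 was 0.0296 to 0.0495 in ND, 0.0163 to 0.0253 in HFD and 0.0194 to 0.0350 in FSP, so on that ratio HFD and FSP overlapped. Epcam itself differed between those groups, so the ratio carries its change too.

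Pigr, the polymeric immunoglobulin receptor of the epithelium, lies at chromosome 1, 130826684 to 130852249 on the plus strand and was the most abundant of the 8 genes in 9 of 11 libraries. It measured 642, 778 and 965 FPKM in ND, 264, 537, 537 and 573 in HFD and 266, 517, 652 and 492 in FSP. All HFD libraries were below all ND libraries, FSP 3 reached into the ND range, and HFD 1 and FSP 1 were lowest at nearly equal levels. Means were 795 ± 162 (SD, n = 3), 478 ± 143 (SD, n = 4) and 482 ± 160 FPKM (SD, n = 4). The HFD difference was -0.78 on the log2 scale (SE 0.33, limma adjusted p = 0.107, exact two-sided permutation p = 0.0286), -0.51 without HFD 1 (limma adjusted p = 0.239) and -0.38 with the epithelial markers in the fit (0.505). FSP differed from HFD by 0.00 (SE 0.30, limma adjusted p = 0.997), a sign that flipped under every other scaling tried, and from ND by -0.77 (SE 0.33, 0.302). Relative to Epcam, Pigr was 0.832 to 1.11 in ND, 0.667 to 0.927 in HFD and 0.311 to 0.734 in FSP. On that ratio FSP lay wholly below ND and overlapped HFD. Epcam itself was lower in HFD than in ND (-0.58) and higher in FSP than in HFD (0.71), so the ratio carries those changes too. Ratios to the other epithelial markers were not taken.

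Jchain and Pigr, the pair of genes whose products meet during IgA transport, therefore differed from ND in opposite directions in the means of HFD and FSP. Of these differences only that of Jchain in FSP passed limma. Within ND both genes rose from ND 1 to ND 3, and HFD 1 was the lowest HFD library for both. FSP 3 was the lowest FSP library for Jchain and the highest for Pigr. Whether the pair varied together was not tested. Jchain was highest in FSP 2, where Pigr at 517 FPKM was below every ND library. In FSP 1, Jchain was 408 FPKM and Pigr 266 FPKM, whereas ND 3 held 62.1 FPKM of Jchain and 965 FPKM of Pigr. Genes known to control Pigr, the interleukin 17, interferon and NF-kappaB pathways, were read from a list of 14, of which 11 were tested. In HFD against ND 5 of these 11 fell and 0 rose, beside 15.1% of all tested genes that fell, with a list median of -0.18 against -0.21 over all tested genes. Il17rc, a chain of the interleukin 17 receptor, fell by 1.17 (limma adjusted p = 0.00180) and kept its call in all 19 alternatives. Ifngr1, Relb and Myd88 fell by 0.53, 0.54 and 0.44, and each lost its call after median-ratio scaling and without ND 2. Relb lost it under 14 of the 19 alternatives. Ifngr1 lost it under 11, also without HFD 1 (limma adjusted p = 0.0820), ND 1, HFD 2, HFD 3 or FSP 1. Of the 11, Il17rc alone passed in FSP against HFD, where 3.74% of all tested genes passed, higher by 0.96 (limma adjusted p = 0.0162). That call was lost without FSP 4 or with the epithelial markers in the fit. In FSP against ND 0 passed, with 1 at an unadjusted p under 0.05, beside 1487 of all 10296 tested genes.

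Of the 4 genes tested, 1 passed in HFD against ND (Sdc1, lower), where 20.5% of all tested genes passed and 15.1% were lower. The split of all calls there was 552 higher and 1557 lower, and 899 higher and 799 lower after median-ratio scaling. In FSP against ND 1 of 4 passed (Jchain, higher), against 1.03% of tested genes in either direction and 0.699% higher. In FSP against HFD 0 of 4 passed limma, against 3.74% of tested genes, and 2 had an unadjusted p under 0.05 (Jchain and Sdc1, both higher). Of all 10296 tested genes, 1925 had such a p there. Without the filter 0 of the other 4 passed in any of the 3 comparisons (of all genes, 6.99% passed between HFD and ND, 0.482% between FSP and HFD and 0.239% between FSP and ND), and their smallest limma adjusted p was 0.190, for Derl3 in FSP against ND. The 24 exact tests of single genes were not adjusted, and 3 reached 0.0286, those of Sdc1 and Pigr in HFD against ND and of Sdc1 in FSP against HFD.

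**Figure D2:**
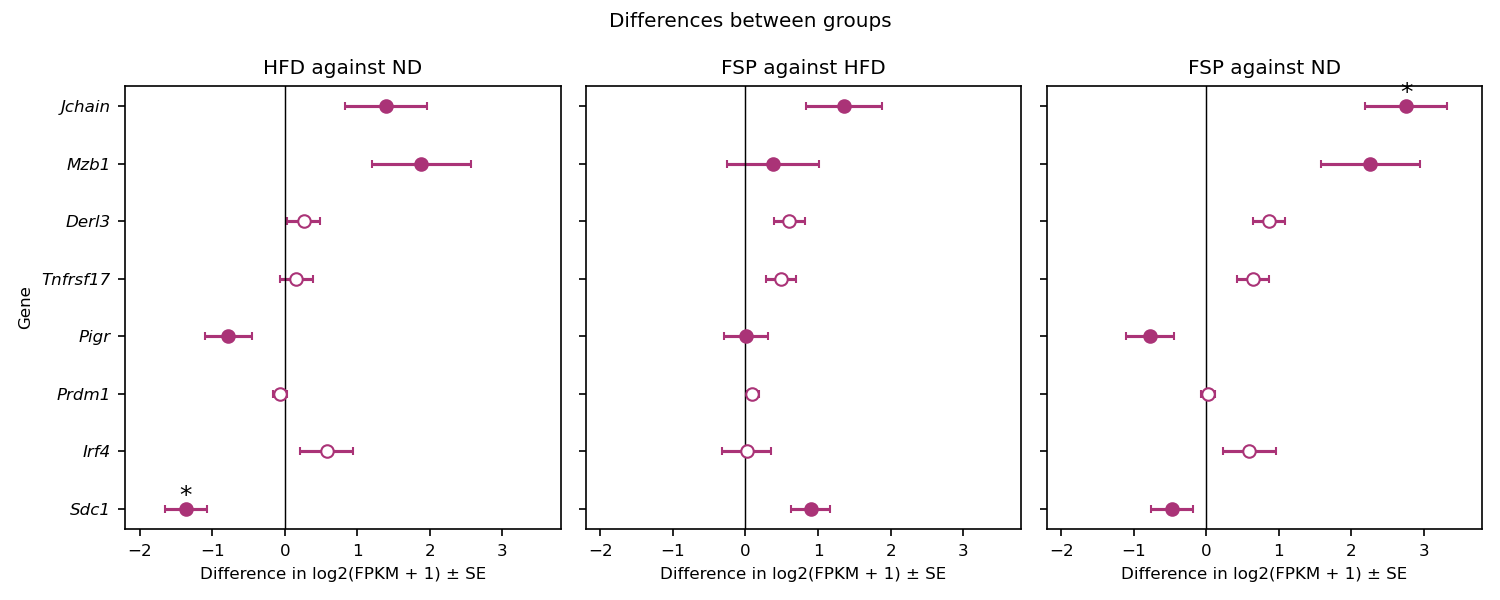
Differences in log2(FPKM + 1) with SE for the 8 genes in HFD against ND, FSP against HFD and FSP against ND. Filled points are the 4 genes with a mean of at least 1 FPKM, open points the 4 below it from the fit with no filter, and an asterisk marks a limma adjusted p under 0.05. Sdc1 at -1.36 in HFD against ND and Jchain at 2.76 in FSP against ND carry one.

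The B cell genes varied far more within HFD and FSP than within ND. Cd79a measured 1.47, 1.06 and 0.752 FPKM in ND, 99.3, 59.3, 22.8 and 1.31 in HFD and 95.3, 44.8, 0.733 and 4.07 in FSP. Ms4a1 measured 0.514, 0.440 and 0.199 FPKM in ND, 20.9, 16.1, 6.16 and 0.0270 in HFD and 25.3, 8.16, 0.00880 and 0.132 in FSP. Both were high in HFD 1, HFD 2, HFD 3, FSP 1 and FSP 2 and low in the other 6 libraries, a gap that leaves 2 separate clusters and no pooled correlation. Neither passed in HFD against ND (limma adjusted p = 0.0951 for Cd79a and 0.165 for Ms4a1). Markers of follicles and of the epithelium over them summed to 6.82 to 9.05 FPKM in ND, 6.68 to 151 in HFD and 10.7 to 142 in FSP.

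**Figure D3:**
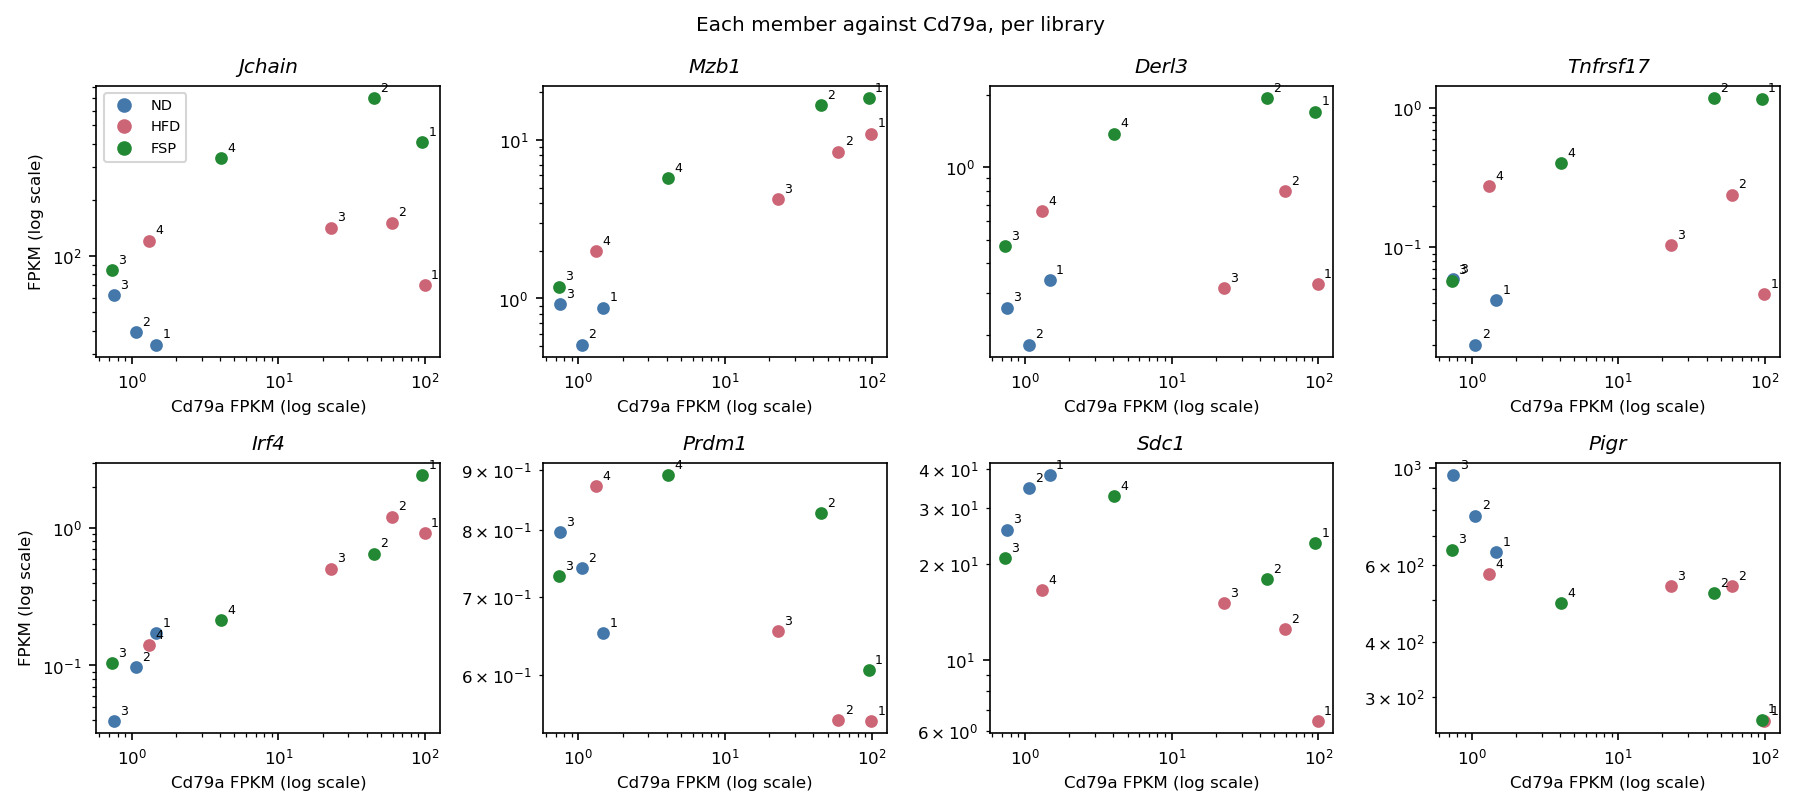
FPKM of each of the 8 genes against FPKM of Cd79a per library, both axes on a log scale, with replicate numbers beside the points and colours for ND, HFD and FSP. HFD 1, with Cd79a at 99.3 FPKM, had 70.0 FPKM of Jchain and 10.99 of Mzb1, whereas FSP 4, with Cd79a at 4.07, had 335 FPKM of Jchain.

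Mzb1 followed both B cell genes between libraries of a group, and Jchain did not pass except with the epithelial markers in the fit. Which cells held the Mzb1 RNA was not tested. The slope of log2(FPKM + 1) on that of Cd79a within groups was 0.45 for Mzb1 (SE 0.05, limma adjusted p = 0.000204), a call that held under all 19 alternatives and was 0.46 without HFD 1. Cd79a split HFD and FSP into high and low libraries, so slopes on it rest largely on that contrast. For Jchain the slope was 0.18 (SE 0.11, limma adjusted p = 0.286), and without FSP 3, the library lowest in both genes among FSP, it was -0.01. The Jchain slope ran from -0.01 to 0.31 on leaving out a library, and with the epithelial markers in the fit it was 0.39 (limma adjusted p = 0.0205). Slopes were negative for Pigr (-0.16, SE 0.05, limma adjusted p = 0.0884) and Sdc1 (-0.10, SE 0.05, 0.263). In all, 1 of the 4 genes tested passed, against 6.84% of all tested genes in either direction and 2.94% upward. On Ms4a1 the slope of Mzb1 was 0.50 (SE 0.08, limma adjusted p = 0.00356) and that of Jchain 0.18 (SE 0.13, 0.426), so again 1 of 4 passed, against 3.85% of all tested genes and 2.41% upward.

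With no filter, 2 of the 8 genes followed Cd79a, Mzb1 and Irf4, against 2.03% of all genes upward. Irf4 had a slope of 0.21 on Cd79a (SE 0.04, limma adjusted p = 0.0278) and 0.26 on Ms4a1 (adjusted p = 0.00861, against 1.97% of all genes upward). Irf4 is also expressed by activated B cells. Slopes on Cd79a were 0.09 for Tnfrsf17 (SE 0.04, limma adjusted p = 0.300), 0.07 for Derl3 (SE 0.04, 0.475) and -0.03 for Prdm1 (SE 0.02, 0.382). For comparison, 16 of the 17 other tested genes of a B cell list followed Cd79a, the exception being Blnk at 0.05. So did 4 of 5 tested macrophage and dendritic cell markers, 2 of 3 T cell markers and 3 of 3 follicle markers, but 0 of 8 epithelial markers. Over all tested genes the upward share was 2.94%. Following Cd79a was thus not particular to genes of the B cell lineage. Several of the B cell genes reached a mean of 1 FPKM only through the libraries high in Cd79a. Pax5, for example, measured at most 0.0398 FPKM in the low libraries and 0.800 to 4.09 in the high ones. The filter therefore favoured such genes, and the share of the B cell list cannot be compared with 2.94%. At these low levels log2(FPKM + 1) compresses a slope, so slopes are not compared between genes of different level.

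**Figure D4:**
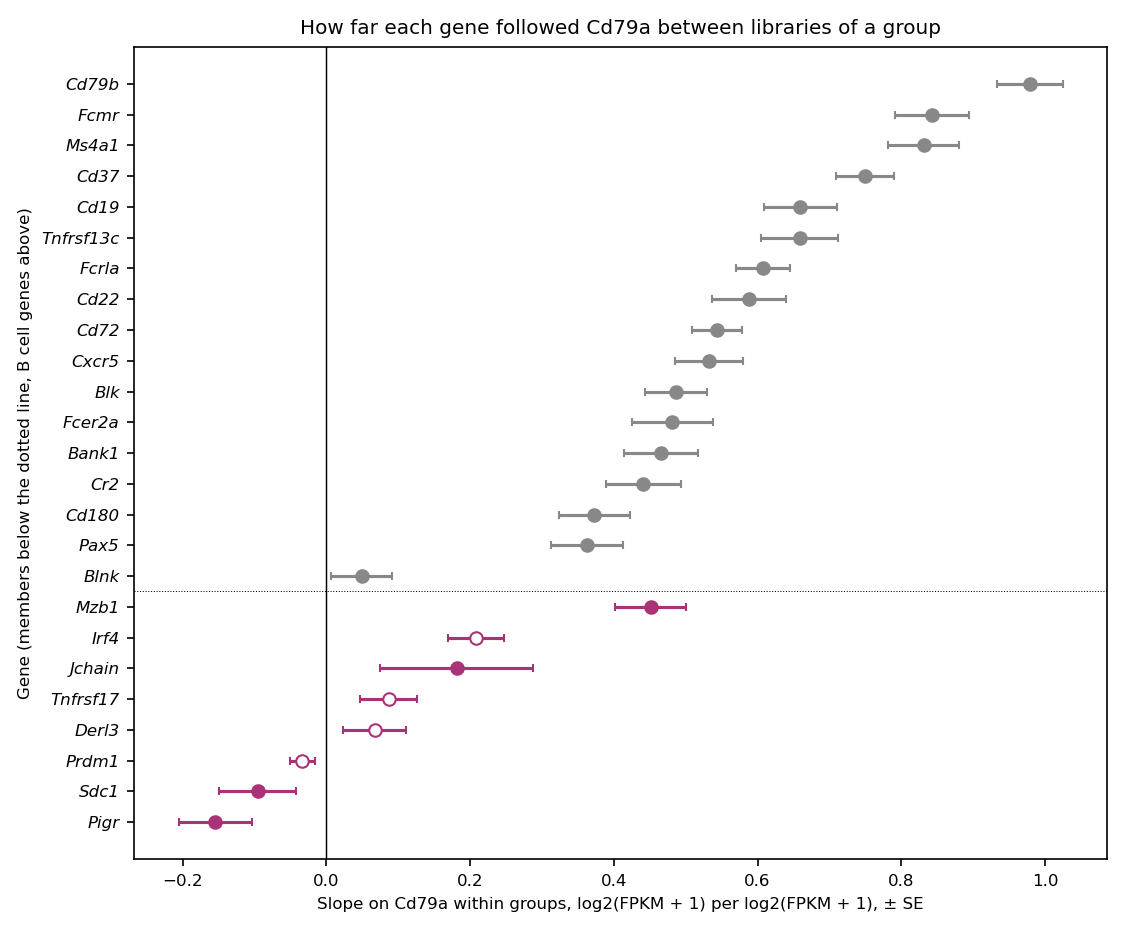
Slope of each gene on Cd79a within groups, in log2(FPKM + 1) per log2(FPKM + 1), with SE. B cell genes are above the dotted line and the 8 plasma cell and secretory IgA genes below it, open where the mean is under 1 FPKM. Mzb1 at 0.45 lies among the B cell genes, while Sdc1 at -0.10 and Pigr at -0.16 lie below 0.

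Jchain was also divided by Cd79a, a ratio that falls wherever Cd79a is high unless a gene rises as much. Jchain over Cd79a was 22.9, 36.9 and 82.5 in ND, 0.705, 2.55, 6.24 and 92.2 in HFD and 4.28, 15.6, 115 and 82.3 in FSP. The ratio was low in the 5 libraries with high Cd79a and between 22.9 and 115 in the rest. Among those with high Cd79a it was higher in FSP 2 than in any HFD library, and FSP 1 at 4.28 lay between HFD 2 and HFD 3. Low-Cd79a libraries of different groups also differed in Jchain, from 62.1 FPKM or less in ND to 84.3 in FSP 3, 121 in HFD 4 and 335 in FSP 4. Mzb1 over Cd79a split the libraries likewise, at 0.111 to 0.371 in the 5 with high Cd79a and 0.482 to 1.62 in the rest. Because Mzb1 followed Cd79a, a low ratio does not show that a gene departed from it.

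With Cd79a held equal in the fit, 0 of the 4 genes passed limma in HFD against ND (12.5% of all tested genes did), in FSP against HFD (6.07%) or in FSP against ND (2.09%). At an unadjusted p under 0.05 there were 1, 3 and 2 of them, beside 2761, 2215 and 1580 of all 10295 genes tested. Jchain was then 1.50 higher in FSP than in HFD (SE 0.48, limma adjusted p = 0.0944) and 2.26 higher than in ND (SE 0.59, 0.0793), and 0.76 apart between HFD and ND. With the epithelial markers in the fit too, Jchain was -0.29 in FSP against HFD. Its HFD against ND value ran from -0.04 without HFD 4 to 1.42 without FSP 3. Mzb1 differed by 0.73 between FSP and HFD (SE 0.22, limma adjusted p = 0.0840) and by 1.01 between FSP and ND (SE 0.28, 0.0883), and by 0.29 between HFD and ND, which became -0.20 without HFD 4. Sdc1 differed by -1.03 in HFD against ND (limma adjusted p = 0.0582) and by 0.82 in FSP against HFD (0.0703). Leaving out FSP 3 brought 5 of these 12 differences past the threshold: Jchain and Mzb1 in FSP against HFD (limma adjusted p = 0.00886 and 0.00896) and against ND (0.0183 and 0.0265), and Sdc1 in FSP against HFD (0.0303). Without HFD 1, ND 3 or FSP 4, Sdc1 passed in HFD against ND (limma adjusted p = 0.0254, 0.0415 and 0.0457). It also passed there after median-ratio scaling (limma adjusted p = 0.0345), by quantile normalization (0.0434) and with the epithelial markers in the fit (0.0212). Between HFD and FSP, Sdc1 passed after median-ratio scaling (limma adjusted p = 0.0433), and with the epithelial markers in the fit the difference was -0.02.

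Jchain, Derl3 and Tnfrsf17 had the same 3 highest libraries, FSP 1, FSP 2 and FSP 4, a pattern chosen after the values were seen and given without a test. Those libraries, in any order, were the highest 3 for 1.64% of all genes in the table, for 0 of 20 B cell genes and for 3 of 20 other plasma cell genes (Tent5c, Txndc5 and Ccr10). Ccr10, the receptor that brings IgA plasma cells to the gut wall, measured 0.486, 0.346, 0.0913 and 0.258 FPKM in FSP 1 to 4 and at most 0.233 elsewhere. Of 8 macrophage and dendritic cell markers, 5 showed that pattern (Adgre1, Csf1r, Itgax, C1qa and C1qb). The 8 summed to 19.1 to 24.7 FPKM in ND, 16.1 to 79.7 in HFD, and 135, 85.4, 10.99 and 57.1 in FSP 1 to 4, and their part in the Jchain result was not tested. T cell markers summed to 5.29 to 8.78, 5.23 to 12.8 and 2.66 to 16.0 FPKM, lowest in FSP 3.

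A list of 20 other plasma cell genes was written with earlier results of these data known. Of its 13 tested genes 5 fell and 0 rose in HFD against ND, beside 15.1% of all tested genes that fell, with a median of -0.46 against -0.21 over all tested genes. Cd38, a surface enzyme found on plasma cells and on other cells, fell by 1.58 (limma adjusted p = 0.000813) and Creld2, an endoplasmic reticulum chaperone, by 1.03 (0.00376), both under all 19 alternatives. Hsp90b1, Sec11c and Edem1, which fold, trim and clear secreted proteins in any secretory cell, fell by 0.85, 0.60 and 0.41, and all 3 lost the call without ND 1 or without ND 2. Sec11c and Edem1 lost it after median-ratio scaling and without ND 3 too, and Sec11c also without HFD 1 (limma adjusted p = 0.0540), HFD 3 or HFD 4. Between HFD and FSP 2 rose, against 3.74% of all tested genes that passed, Edem1 by 0.42 and Fkbp11 by 0.65 (limma adjusted p = 0.0422 and 0.0464), lost under 16 and 14 alternatives, median-ratio scaling and leaving out HFD 1 included (0.0826 and 0.110). In FSP against ND 1 fell (1.03% of all tested genes passed), Cd38 by 1.28 (limma adjusted p = 0.0144), lost without ND 1 or ND 2. Pou2af1, a B cell coactivator, and Tnfrsf13b, which encodes the receptor TACI, followed Cd79a with slopes of 0.52 and 0.41, against 2.94% of all tested genes upward, and the other 11 did not pass. Both stayed under 1 FPKM in the libraries low in Cd79a, so they reached the filter only through those high in it. Xbp1, the transcription factor of the secretory programme, which gut epithelium also expresses, measured 77.0 to 98.3 FPKM in ND, 37.1 to 75.9 in HFD and 66.0 to 98.7 in FSP.

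**Figure D5:**
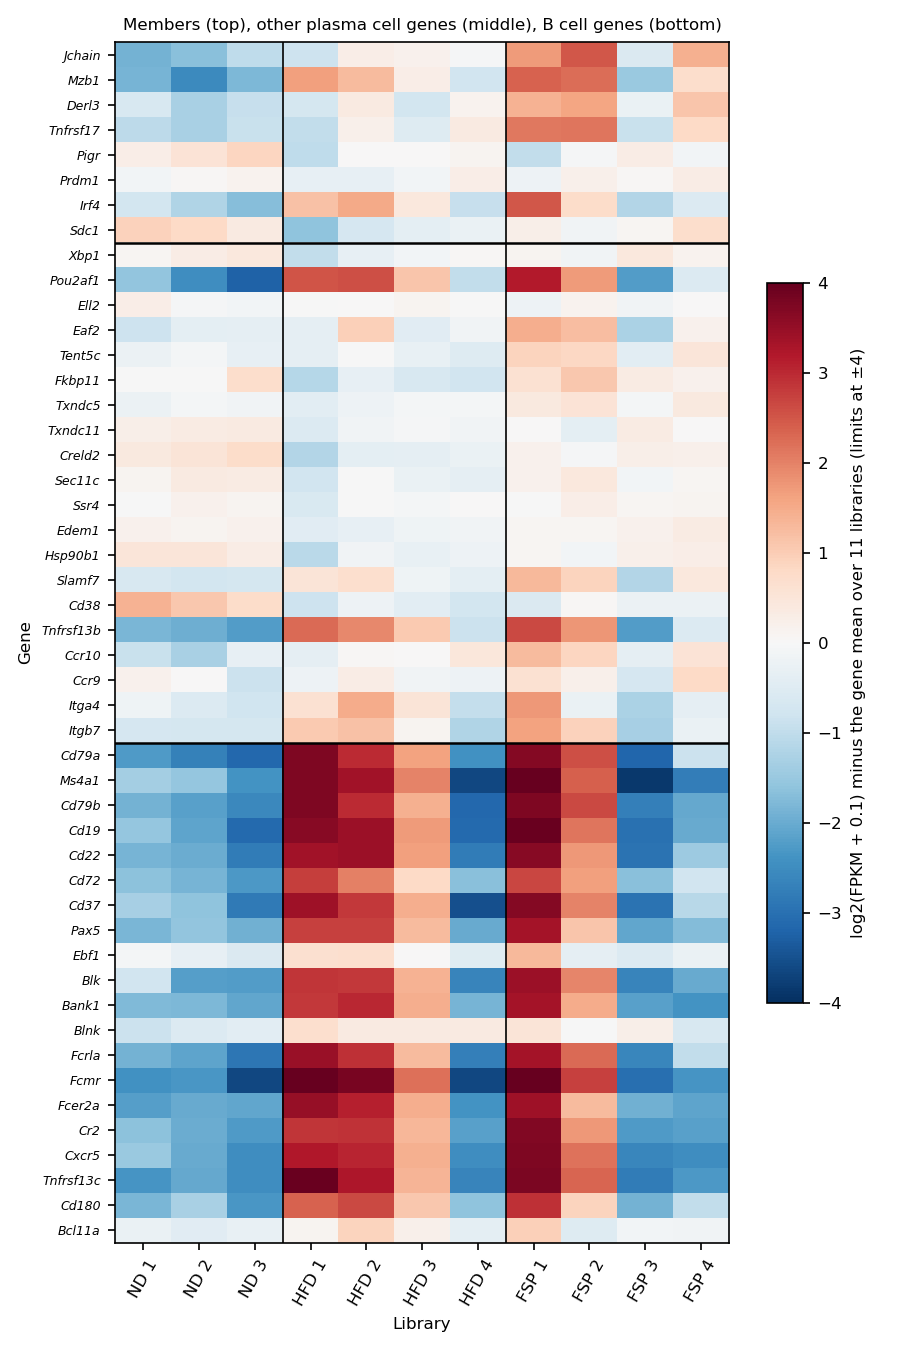
log2(FPKM + 0.1) minus the mean of each gene over the 11 libraries, for the 8 genes (top), 20 other plasma cell genes (middle) and 20 B cell genes (bottom), colour limits at 4 either way. The B cell block is high in HFD 1 to 3, FSP 1 and FSP 2, and Jchain, Derl3 and Tnfrsf17 are highest in FSP 1, FSP 2 and FSP 4.

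Signals that switch B cells to IgA, draw plasma cells to the gut or keep them alive were read from a list of 15 genes, 14 of them matched and 9 tested. In HFD against ND 1 passed, Ccl28, an epithelial chemokine for IgA plasma cells, which fell by 1.26 (limma adjusted p = 0.0320). It measured 6.49 to 7.40 FPKM in ND, 0.721 to 3.79 in HFD and 1.44 to 5.98 in FSP, and its call was lost without any ND library, HFD 1 or HFD 3. Among these 9, 0 passed limma for FSP, whether set against HFD or ND, with 0 and 1 at an unadjusted p under 0.05. Of all 10296 tested genes, 1925 and 1487 had such a p. Madcam1, the vessel ligand for gut-homing lymphocytes, and Tgfb1, which directs the switch to IgA, followed Cd79a with slopes of 0.39 and 0.34 (limma adjusted p = 0.000107 and 0.000274). Madcam1 measured at most 0.127 FPKM in the libraries low in Cd79a, so it reached the filter only through those high in it. Tnfsf13, which encodes the survival factor APRIL, had a slope of -0.18 (0.0210), a call lost without HFD 1, HFD 4 or FSP 3. Of 12 listed genes of the immunoglobulin constant regions, IgA heavy chain included, 0 matched a symbol of the authors' table, so they were not analysed.

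The genes most like Jchain and Pigr over the 11 libraries, by Pearson r of log2(FPKM + 1) among 9942 tested genes with an assigned symbol, are given as a description. Immunoglobulin segments, products of plasma cells, were left out of this ranking beforehand, so none could appear in it. Each r is over libraries that share their group, depth and tissue makeup. Closest to Jchain were Aoc1 (r = 0.969), Med11 (0.942), Fer1l6 (0.940), Fcgbp (0.931), Tmem150b (0.928) and Ptgr1 (0.923). Fcgbp, a mucus protein of goblet cells, measured 206, 386, 54.2 and 215 FPKM in FSP 1 to 4, against 44.5 to 77.1 in ND and 120 to 154 in HFD. Closest to Pigr were Ociad2 (r = 0.968), Prom1 (0.959), Dmbt1 (0.952), Tnfsf10 (0.933), Mob3b (0.927) and Tmprss4 (0.920). No tested B cell or plasma cell gene of the lists was among either 6. Genes with a mean under 1 FPKM, Derl3, Tnfrsf17, Irf4 and Prdm1 included, were not ranked and so could not appear. Dmbt1, a secreted scavenger protein of the epithelium, measured 125 to 135 FPKM in ND, 16.4 to 84.8 in HFD and 18.9 to 72.8 in FSP.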

How the data were processed

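RNA from mouse intestine was sequenced in 11 libraries (ND 3, HFD 4, FSP 4). Titles gave the group and replicate number. Per the labels' protocols, TRIzol and the VAHTS Universal V6 library kit were used. Per the submitters' processing notes, fastp, HISAT2, HTSeq and R 3.2.0 were used with build mm10. Which annotation, strand setting and quantifier they chose is not given in the sources used here. FPKM was deposited by the authors in a table of all libraries, and their single-library tables held no differing value among shared genes. FSP tables shared all 24250 genes with that table. HFD and ND tables held 24294 genes each, 23609 of them shared, the 8 genes, Cd79a and Ms4a1 included. FPKM scales each library to its own total, so an abundant class of RNA lowers all other genes.

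The test was limma 3.58.1 (R 4.3.3) on log2(FPKM + 1) (intensity trend, 1 fit over 3 groups, two-sided, Benjamini-Hochberg over all tested genes, threshold 0.05), on the 10296 genes with a mean of at least 1 FPKM. Slopes used Cd79a or Ms4a1 beside the group. Single genes were also tested by exact permutation of the libraries. The method was tested on simulated data, with changes and slopes planted only in genes of below-median spread and noise independent between genes. That simulation does not cover genes of larger spread or differences in tissue makeup shared by many genes. Fragment totals were recovered from 658 single-exon genes, in which 75.0% to 78.9% of low values were whole within 0.05 of a fragment, too few for a count model. Counting error is largest for the genes under 1 FPKM.

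The 8 genes and all lists were chosen with earlier results of these data known. Named beyond the 8 were genes of a list past the threshold, or else up to 4 with the smallest p, and the 6 genes most like Jchain and Pigr. Alternatives were a pseudocount of 0.1, no filter, 3 other scalings, robust variance, the replicate number as a block and leaving out each library. A fit with the mean of 8 epithelial markers as covariate was chosen after seeing the data. Because these markers summed higher in every FSP library than in any other, it cannot separate differences of FSP from the marker level. Some genes of the lists are counted but not reported by name here.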

Additional observations from a re-analysis of the deposited data

Results flagged for a closer look

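Among 20 groups of 4 libraries (the 8 genes, Cd79a and Ms4a1 in HFD and in FSP), 1 had a library far from the others. Pigr measured 264 FPKM in HFD 1, against 537, 537 and 573 FPKM in the other HFD libraries. By chance about 1 in 20 such groups would show this. HFD 1 also had the highest mitochondrial share (40.4%) and the highest Cd79a (99.3 FPKM), and their part in the Pigr value was not tested.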

How the results depend on the processing

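Over 19 alternatives, the fall of Sdc1 in HFD against ND and the slope of Mzb1 on Cd79a kept their calls. Of the 8 genes, those past the threshold in HFD against ND numbered 2 with a pseudocount of 0.1 (Mzb1, Sdc1) and 1 to 3 on leaving out a library. In FSP against ND they numbered 0 with no filter and with median-ratio scaling, and 0 to 2 on leaving out a library, against 0 to 1 in FSP against HFD. Following Cd79a there were 2 with no filter (Irf4, Mzb1) and 2 with the epithelial covariate (Jchain, Mzb1), following Ms4a1 2 with no filter, and 1 on leaving out any library. At equal Cd79a there were 2 after median-ratio scaling, 1 by quantiles, 1 with the epithelial covariate and 0 to 5 on leaving out a library. Counts over all genes moved more. In HFD against ND the count was 2109, 1083 with the epithelial covariate and 852 to 2688 on leaving out a library. In FSP against HFD it was 385, 117 with no filter, 245 with median-ratio scaling, 0 by limma with the epithelial covariate (1007 at an unadjusted p under 0.05) and 48 to 461 on leaving out a library. In FSP against ND it was 106, 58 with no filter, 192 with quantile normalization, 297 with the epithelial covariate and 13 to 205 on leaving out a library. Following Cd79a it was 704, 1204 after median-ratio scaling, 1407 by quantile normalization, 462 without mitochondrial genes, 276 with the epithelial covariate and 242 to 1174 on leaving out a library, and following Ms4a1 396, 952, 1158, 292, 200 and 185 to 1058. Signs that turned belonged to differences that had not passed. With the epithelial covariate FSP against HFD was -0.73 for Pigr, -0.0134 for Sdc1 (-0.0160 at equal Cd79a), 2.30 for Cd79a and 1.94 for Ms4a1, Jchain at equal Cd79a was -0.29, and the Sdc1 slopes were 0.00114 on Cd79a and 0.00550 on Ms4a1. Pigr in FSP against HFD was -0.14 after median-ratio scaling and -0.10 both by quantiles and without mitochondrial genes. Prdm1 was 0.0375 in HFD against ND with median-ratio scaling and -0.00104 in FSP against ND without mitochondrial genes. Irf4 in FSP against HFD was -0.17 with a pseudocount of 0.1, -0.0478 after median-ratio scaling and -0.0315 without mitochondrial genes. On leaving out a library, ranges that crossed 0 were -0.00587 to 0.31 (Jchain on Cd79a), -0.0443 to 1.42 and -0.20 to 0.59 (Jchain and Mzb1, HFD against ND at equal Cd79a), -0.0214 to 1.03 (Mzb1, FSP against HFD), -0.26 to 0.26 (Pigr, FSP against HFD), -0.39 to 0.00950 and -0.30 to 0.0749 (Pigr at equal Cd79a, HFD against ND and FSP against HFD), -0.38 to 0.18 (Sdc1, FSP against ND at equal Cd79a), -1.90 to 0.23 (Cd79a, FSP against HFD), -0.00873 to 0.0702 (Prdm1, FSP against ND) and -0.34 to 0.21 (Irf4, FSP against HFD). The cause of these changes was not tested. Replicate numbers did not pair the libraries: deviations of same-numbered libraries correlated at -0.0994 to 0.454, 5 of 10 pairs over 0.1, and 0 of 11 libraries correlated best with their own number. With the replicate number as a block the calls among the 8 genes were 3 in HFD against ND (Mzb1, Pigr, Sdc1), 0 in FSP against ND, 0 following Ms4a1 and 1 at equal Cd79a, the counts over all genes were 41 following Cd79a and 49 following Ms4a1, and Jchain and Mzb1 in HFD against ND at equal Cd79a were -1.08 and -0.43. Rescaling without immunoglobulin genes was not run. Depth limits Tnfrsf17 most, with about 1 to 3 fragments in the ND libraries, HFD 1 and FSP 3.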
